A study of Mus musculus with 23 samples.

Results

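Edn2, Fgf2, Lif, Ednrb, Osmr, Stat3, Socs3, Bcl3, Gfap and Serpina3n were followed through mouse retinal organoids as a group of photoreceptor stress and gliosis signals, 10 of the 52143 genes measured. They were taken by symbol from the deposited gene table, and the group was assembled because Edn2, Fgf2 and Bcl3 differed strongly between culture days, so the day differences of its members are given below as a description, with no test. RNA sequencing of directional poly(A) libraries gave 23 samples. All came from 1 clone of induced pluripotent stem cells, reprogrammed from embryonic fibroblasts of wild-type Nrl-GFP mice, in which green fluorescent protein marks rods. Organoids were grown from that clone, and each library was made from neural retina dissected out of about 12 pooled organoids.

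The groups differed in day, in fatty acid and in FGF1, a fibroblast growth factor. At day 32 with 200 ng/ml FGF1 from day 26 there were 2 libraries with docosahexaenoic acid (DHA), 3 with linoleic acid (LA) and 3 with bovine serum albumin (BSA). At day 32 without FGF1 there were 3 libraries each with DHA, LA and BSA. At day 26, before FGF1, there were 2 libraries each with DHA, LA and BSA. DHA and LA were given at 26 µM from day 10 on BSA as carrier, and the BSA groups received the carrier alone. The base medium was shared, but from day 26 it also gained non-essential amino acids, a B27 supplement without vitamin A and 2% fetal bovine serum. A comparison of day 32 with FGF1 against day 26 therefore joins age, the change of medium and FGF1, which cannot be told apart. LIF protein was part of the stem cell medium and is not listed for the organoid media.

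In an injured or stressed retina, photoreceptors are known to release endothelin 2 (Edn2), which acts on the endothelin receptor B (Ednrb) of Müller glia, the radial glia of the retina. Leukemia inhibitory factor (Lif) and oncostatin M signal through receptors that share gp130 and activate the transcription factor Stat3, which induces its own inhibitor Socs3 and the intermediate filament gene Gfap. Gfap and the secreted protease inhibitor Serpina3n are classical signs of glial reactivity, and fibroblast growth factor 2 (Fgf2) is known to support stressed photoreceptors. Bcl3 is a nuclear member of the IκB family that binds NF-κB subunits.

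The 23 libraries formed 2 sets that do not follow the labels. All day 26 libraries and libraries 1 and 2 of each day 32 group with FGF1 held 16029580 to 20510550 counts, and are called deeper. The other 11, all at day 32, held 10405663 to 11888224 counts, and are called shallower. They comprise the 9 libraries without FGF1 and library 3 of LA with FGF1 and of BSA with FGF1. Mitochondrial genes took 3.02% to 4.24% of the counts in deeper libraries and 5.55% to 12.5% in shallower ones. Each gene's log2 CPM, relative to its mean over the 23 libraries, was regressed on GC content. The slopes therefore average out over the libraries and compare each library with the mean library. They were positive in every deeper library (0.612 to 0.834 per 10 percentage points) and negative in every shallower one (-1.18 to -0.118). The authors left 5 of the shallower libraries out of their normalized table. Comparisons were therefore made within each set. Deeper libraries of day 32 and of day 26 had similar GC slopes, with medians of 0.752 at day 32 and 0.742 at day 26. CPM below is a gene's count relative to its library's total, scaled by TMM over all 23 libraries.

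Lif (chr11:4257557-4272514), Stat3 (chr11:100885098-100939540), Gfap (chr11:102887336-102900912) and Socs3 (chr11:117966079-117970047) lie on the same chromosome. Edn2 lies at chr4:120161206-120167360, Fgf2 at chr3:37348346-37410108 and Bcl3 at chr7:19808462-19822770. Ednrb lies at chr14:103814625-103844402, Osmr at chr15:6813577-6874969 and Serpina3n at chr12:104406729-104414329. All are protein-coding genes, placed by the deposited table (GRCm38.p6).

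The starts of 7 of the 10 genes are shown. Edn2, Fgf2 and Bcl3 had the widest differences between days, and Bcl3, Lif, Osmr, Socs3 and Gfap held a match to a short DNA word that Stat3, AP-1 or NF-κB proteins are known to bind. Each sequence runs from 250 bases before to 50 bases after the RefSeq gene start (GRCm38.p6), read along the gene's own strand. This start is not always the outer end of the gene as placed above. The windows of Fgf2, Ednrb, Osmr, Socs3 and Gfap lie wholly inside those spans, so the sequence before the outer end was not searched for them. Capitals mark matches on either strand to TTCNNNGAA (the Stat core), its narrower form TTCCNGGAA, TGANTCA (the AP-1 word) or the NF-κB consensus. Windows for all 10 genes were found in the RefSeq promoter table.
Edn2, chr4:120160956-120161255, plus strand: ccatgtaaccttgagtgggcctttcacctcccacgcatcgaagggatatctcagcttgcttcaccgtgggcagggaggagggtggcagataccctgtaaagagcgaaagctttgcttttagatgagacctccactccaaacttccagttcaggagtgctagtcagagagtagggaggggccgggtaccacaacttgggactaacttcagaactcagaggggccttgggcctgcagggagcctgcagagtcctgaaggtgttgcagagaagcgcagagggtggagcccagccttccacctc
Fgf2, chr3:37348403-37348702, plus strand: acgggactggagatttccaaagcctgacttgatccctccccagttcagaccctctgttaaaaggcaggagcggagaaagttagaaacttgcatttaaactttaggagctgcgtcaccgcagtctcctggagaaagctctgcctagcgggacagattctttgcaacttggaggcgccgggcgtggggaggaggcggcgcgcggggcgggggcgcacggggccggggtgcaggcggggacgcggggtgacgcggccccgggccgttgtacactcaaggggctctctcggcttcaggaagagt
Bcl3, chr7:19822706-19823005, minus strand: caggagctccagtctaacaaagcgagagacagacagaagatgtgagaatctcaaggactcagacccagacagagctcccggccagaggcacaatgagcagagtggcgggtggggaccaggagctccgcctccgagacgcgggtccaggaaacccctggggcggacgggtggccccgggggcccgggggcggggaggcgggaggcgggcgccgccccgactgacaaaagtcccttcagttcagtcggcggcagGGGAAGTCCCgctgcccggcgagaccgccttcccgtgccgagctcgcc
Lif, chr11:4257318-4257617, plus strand: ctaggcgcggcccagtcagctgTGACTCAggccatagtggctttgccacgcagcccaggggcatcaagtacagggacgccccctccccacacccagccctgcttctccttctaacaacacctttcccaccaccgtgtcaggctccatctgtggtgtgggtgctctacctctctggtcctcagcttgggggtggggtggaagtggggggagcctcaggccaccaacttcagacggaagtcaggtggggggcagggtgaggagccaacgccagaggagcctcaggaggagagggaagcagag
Osmr, chr15:6874264-6874563, minus strand: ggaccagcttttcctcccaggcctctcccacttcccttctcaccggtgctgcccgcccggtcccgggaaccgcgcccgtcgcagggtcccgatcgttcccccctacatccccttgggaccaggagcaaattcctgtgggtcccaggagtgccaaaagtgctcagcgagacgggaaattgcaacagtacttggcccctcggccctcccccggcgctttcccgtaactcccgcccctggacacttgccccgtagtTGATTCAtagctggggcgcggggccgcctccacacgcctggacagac
Socs3, chr11:117969317-117969616, minus strand: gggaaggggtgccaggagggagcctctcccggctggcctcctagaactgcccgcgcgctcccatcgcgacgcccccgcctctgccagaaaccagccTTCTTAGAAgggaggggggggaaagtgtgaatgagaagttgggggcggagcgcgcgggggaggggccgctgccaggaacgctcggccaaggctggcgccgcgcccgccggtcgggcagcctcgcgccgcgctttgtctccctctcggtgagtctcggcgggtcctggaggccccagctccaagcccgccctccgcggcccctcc
Gfap, chr11:102897151-102897450, minus strand: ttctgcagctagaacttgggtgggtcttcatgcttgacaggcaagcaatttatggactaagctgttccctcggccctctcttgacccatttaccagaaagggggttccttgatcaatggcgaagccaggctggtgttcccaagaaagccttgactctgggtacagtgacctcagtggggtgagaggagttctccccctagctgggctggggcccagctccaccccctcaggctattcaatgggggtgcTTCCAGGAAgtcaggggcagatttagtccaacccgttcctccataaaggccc

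Socs3 held TTCTTAGAA at bases 97 to 105 of its window, and Gfap held TTCCAGGAA at bases 249 to 257, which also matches the narrower form. Of 32851 promoters of the same length, 8.298% held TTCNNNGAA and 1.148% held TTCCNGGAA. Bcl3 held GGGAAGTCCC, a match to the NF-κB consensus that 4.505% of promoters held, just inside the transcript. Lif held TGACTCA at bases 23 to 29 and Osmr held TGATTCA at bases 254 to 260, a word found in 7.808% of promoters. The windows of Edn2, Fgf2, Ednrb, Stat3 and Serpina3n held none of these letters. A match describes the letters and not a bound site.

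Per transcript length, the members differed widely in level. In the deeper day 32 libraries with FGF1, median TPM (counts scaled by transcript length and library) was 140 for Stat3, 55.9 for Fgf2, 51.3 for Gfap, 22.6 for Bcl3, 15.2 for both Socs3 and Edn2 and 11.8 for Ednrb. Serpina3n, Osmr and Lif were lowest, with median TPM of 5.26, 4.83 and 3.51. At day 26 only Stat3 (37.0), Socs3 (8.04), Gfap (6.51) and Ednrb (5.92) had a median above 1 TPM. Neighbours in this order, such as Fgf2 and Gfap or Socs3 and Edn2, overlapped across the 6 libraries.

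All 10 members were higher at day 32 with FGF1 than at day 26 in the deeper libraries. Edn2, Bcl3, Lif, Osmr and Serpina3n were near the floor at day 26 and detected in every day 32 library. Fgf2 was low at day 26 but counted in every library (0.965 to 2.36 CPM). Stat3, Socs3, Gfap and Ednrb were already present at day 26. The 10 fitted log2 differences ran between 0.63 and 7.53 with a median of 3.56, beside a median of 0.00 over all 20111 genes. In 8 of the 10, every day 32 library lay above every day 26 library, which held for 8.53% of all genes, while in 7.69% of genes every day 32 library lay below. Over all genes, 28.7% met an adjusted p under 0.05 in edgeR's quasi-likelihood test with Benjamini-Hochberg adjustment, 14.6% being higher and 14.1% lower at day 32 with FGF1. The members were chosen from this contrast, so their differences, standard errors and overlaps are a description, and no count of members past the threshold is given for it. In bulk tissue, more cells of a type and more RNA per cell cannot be told apart.

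**Figure D1:**
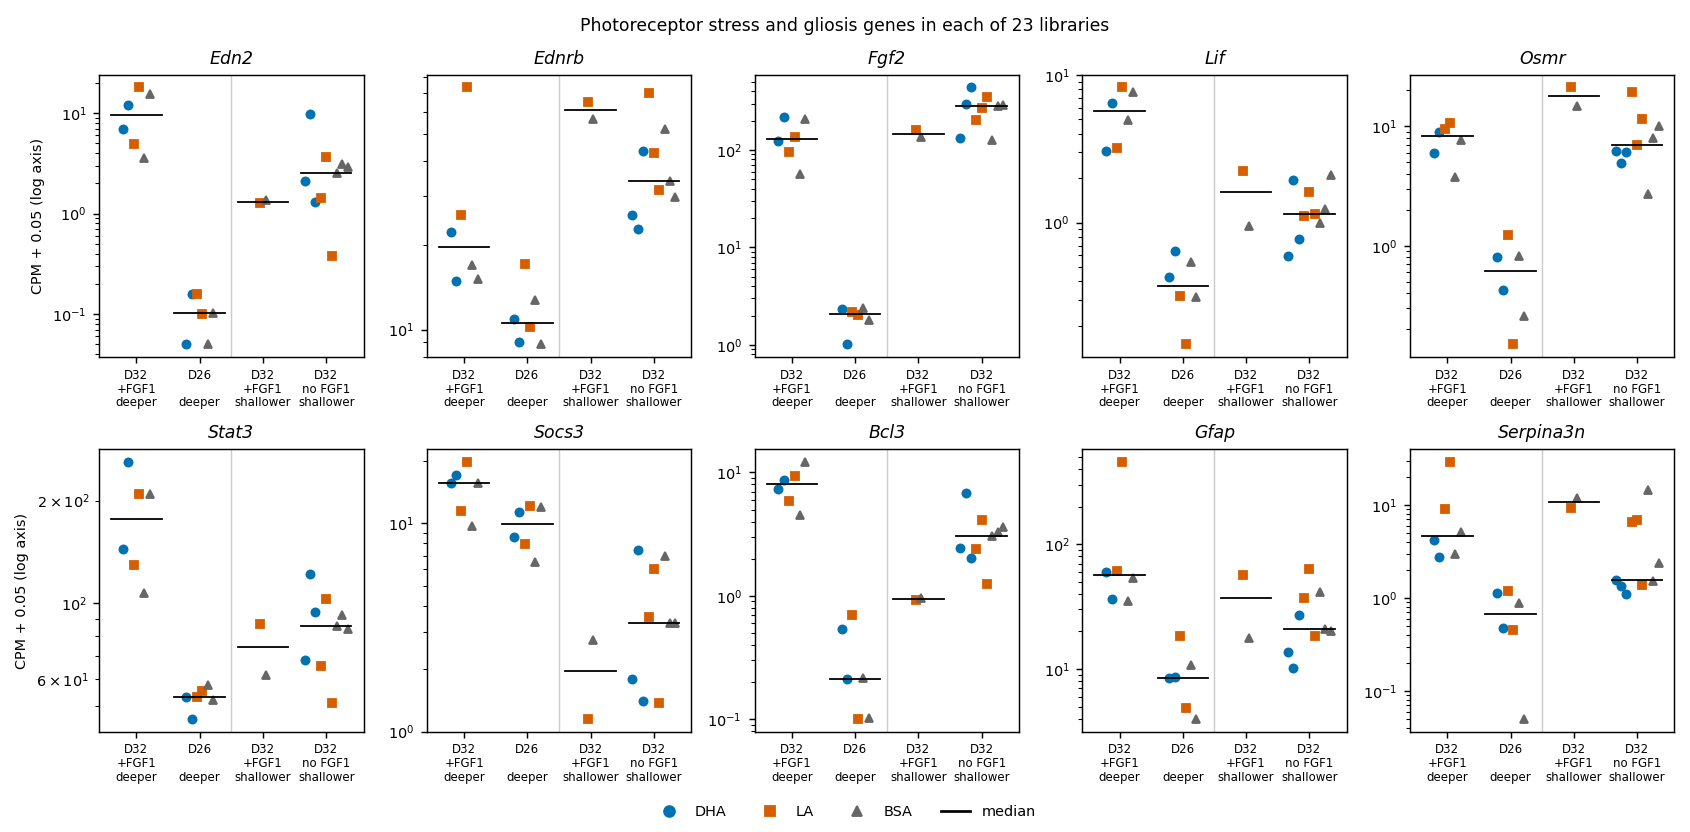
CPM plus 0.05 on a log axis for the 10 genes, 1 point per library, with the marker for the medium and a line for the median. At day 32 with FGF1, left in each panel, every deeper library lies above those of day 26 for all genes except Ednrb and Socs3.

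Edn2, the photoreceptor ligand, had 6.95 and 12.1 CPM in the DHA libraries, 4.85 and 18.0 CPM in the LA libraries and 3.51 and 15.4 CPM in the BSA libraries of day 32 with FGF1. At day 26 it had 0 and 0.107 CPM with DHA, 0.108 and 0.0501 CPM with LA, and 0 and 0.0524 CPM with BSA. The 6 day 32 libraries held 1202 counts together and the 6 day 26 libraries 6 counts, so that Edn2 was close to undetected at day 26. Relative to total counts the ratio was 200, which rests on those 6 counts, and the fitted log2 difference was 7.53 (SE 0.67). Even the lowest day 32 library was 32.5 times the highest day 26 library.

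Fgf2, the photoreceptor survival factor, had 124 and 220 CPM with DHA, 96.1 and 137 CPM with LA and 56.2 and 206 CPM with BSA at day 32 with FGF1. At day 26 it had 2.31 and 0.965 CPM with DHA, 2.10 and 1.95 CPM with LA, and 2.36 and 1.73 CPM with BSA. The libraries of day 32 with FGF1 averaged 140 ± 63.1 CPM, and those of day 26 were tight at 1.90 ± 0.515 CPM (SD, n = 6 each). The log2 difference was 6.20 (SE 0.37). Nudt6, on the opposite strand, shares 640 exon bases with Fgf2 but held 779 counts over all libraries against 43618 for Fgf2. Whether counting used strand is not given in the sources used here.

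Lif, the cytokine that signals to Müller glia, had 3.03 to 8.18 CPM with a median of 5.69 at day 32 with FGF1, against 0.1 to 0.590 CPM with a median of 0.323 at day 26. Its summed counts were 655 at day 32 with FGF1 and 39 at day 26, and its log2 difference was 4.09 (SE 0.37). The level stayed low at both days.

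Of the receptors, Osmr, the oncostatin M receptor subunit, went with the ligands and Ednrb did so less clearly. Osmr had 3.72 to 10.6 CPM with a median of 8.25 at day 32 with FGF1 and 0.1 to 1.19 CPM with a median of 0.564 at day 26, a log2 difference of 3.75 (SE 0.44). Ednrb had 22.4 and 14.9 CPM with DHA, 25.7 and 73.5 CPM with LA and 16.9 and 15.1 CPM with BSA at day 32 with FGF1. At day 26 it had 10.9 and 8.95 CPM with DHA, 17.1 and 10.2 CPM with LA, and 12.7 and 8.81 CPM with BSA. The days overlapped for Ednrb through the first LA library of day 26, and the log2 difference was 1.13 (SE 0.25).

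Stat3, the transcription factor below these receptors, had 145 and 259 CPM with DHA, 129 and 209 CPM with LA and 107 and 209 CPM with BSA at day 32 with FGF1. All 6 day 26 libraries lay between 45.8 and 57.7 CPM, and the log2 difference was 1.75 (SE 0.19). Socs3, the feedback inhibitor, had 9.69 to 19.6 CPM with a median of 15.6 at day 32 with FGF1 and 6.47 to 12.1 CPM with a median of 9.90 at day 26. Its days overlapped and its log2 difference of 0.63 (SE 0.20) was the smallest of the 10.

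Bcl3 had 7.29 and 8.71 CPM with DHA, 5.78 and 9.34 CPM with LA and 4.51 and 12.1 CPM with BSA at day 32 with FGF1. At day 26 it had 0.484 and 0.161 CPM with DHA, 0.648 and 0.0501 CPM with LA, and 0.164 and 0.0524 CPM with BSA. The summed counts were 947 at day 32 with FGF1 and 30 at day 26, and the log2 difference was 5.10 (SE 0.47).

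For the glial genes 1 library stood apart. Gfap had 59.6 and 36.2 CPM with DHA, 60.4 and 456 CPM with LA and 34.8 and 53.2 CPM with BSA at day 32 with FGF1. At day 26 it had 8.38 and 8.52 CPM with DHA, 18.2 and 4.86 CPM with LA, and 10.7 and 3.93 CPM with BSA. The second LA library with FGF1 stood far above the other 5, and without it the log2 difference was 2.51, against 3.21 (SE 0.49) with it. Serpina3n was highest in the same library, at 28.9 CPM, while the other 5 had 2.67 to 9.09 CPM and the 6 day 26 libraries 0 to 1.13 CPM. Its log2 difference was 3.37 (SE 0.51) with that library and 3.02 without it. The 10 other Serpina3 copies in the table held at most 25.7 summed counts each in the 6 day 32 libraries, against 1025 for Serpina3n.

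That LA library also had the highest Müller glia marker sum (11 genes, Rlbp1 and Slc1a3 among them) of all libraries, 3147 TPM. The other 5 deeper libraries of day 32 with FGF1 had 1999 to 2347 TPM, and those of day 26 had 1022 to 1480 TPM. The sum of 10 rod and cone markers was 6134 to 10401 TPM at day 32 with FGF1, against 2669 to 4660 TPM at day 26. Microglia and macrophage markers (9 genes) summed to 1.47 to 4.65 TPM at day 32 with FGF1 and 3.74 to 5.40 TPM at day 26, with C1qb and C1qc under 1 count at both days. Astrocyte markers (4 genes) summed to 137 to 195 TPM at day 32 with FGF1 and 69.6 to 116 TPM at day 26. Of these markers 7 of 11 Müller genes and all 4 astrocyte genes rose in edgeR's quasi-likelihood test with Benjamini-Hochberg adjustment. Of the 10 rod and cone genes 6 rose and 1 fell, while over all genes 14.6% rose and 14.1% fell. Bipolar and amacrine markers rose too, 4 of 6 genes. Their sum was 482 to 566 TPM at day 32 with FGF1 and 273 to 381 TPM at day 26. Of 4 pigment epithelium markers tested 3 fell. At day 32 with FGF1 the second deeper library of each medium had the higher rod and cone sum and also the higher Edn2, Fgf2, Lif, Osmr, Stat3, Socs3 and Bcl3. At day 26 the picture was mixed. With BSA and with DHA the first library had the higher sum and the higher Fgf2, Osmr, Stat3 and Bcl3, but the lower Edn2 and Socs3. Lif was higher in the first library with BSA and lower in it with DHA. The second LA library had the higher sum (4660 TPM, against 3971 TPM in the first) and the higher Stat3 and Socs3. It had the lower Edn2, Fgf2, Bcl3, Osmr and Lif. The day 26 values of Edn2, Bcl3, Osmr and Lif rest on few counts. The part of cell makeup in the members' difference was not tested.

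**Figure D2:**
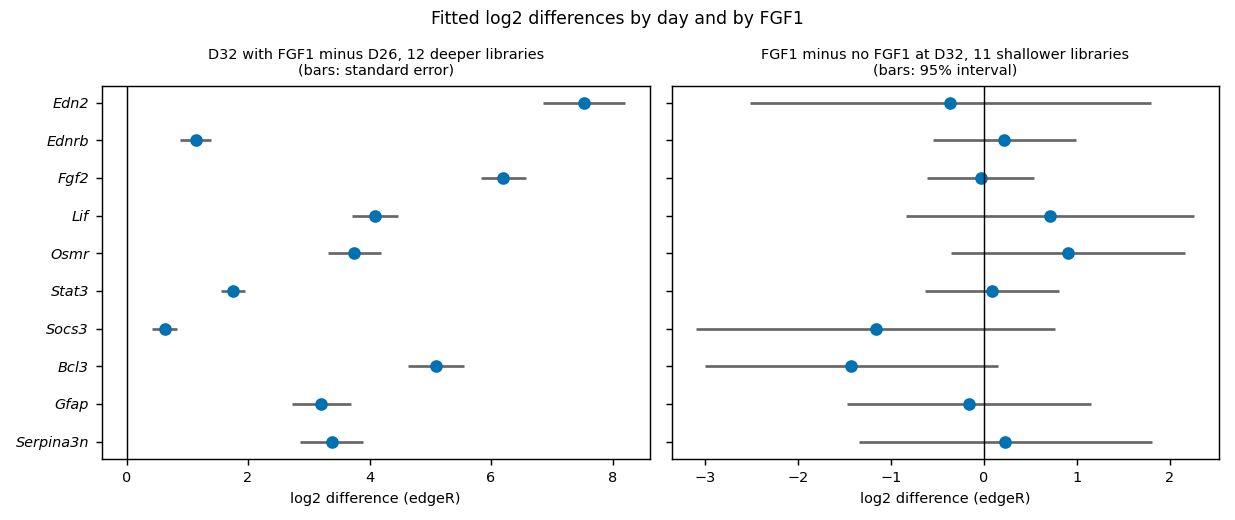
Fitted log2 differences of the 10 genes, with standard errors for day 32 with FGF1 minus day 26 (left) and 95% intervals for FGF1 minus no FGF1 (right). All 10 lie above 0 on the left, between 0.63 and 7.53, while every interval on the right spans 0.

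Other genes of the same pathways moved less uniformly between the days. Of 24 further IL-6 family and JAK-STAT genes tested, 6 rose and 4 fell, with a median log2 difference of 0.21. Il6st, which encodes the shared receptor chain gp130, had a median of 109 CPM at day 32 with FGF1 and 48.8 CPM at day 26, a log2 difference of 1.08 (SE 0.12, edgeR quasi-likelihood test with Benjamini-Hochberg adjustment, adjusted p = 5.2e-05). Cebpd, a transcription factor gene known as a Stat3 target, had a median of 13.6 CPM at day 32 with FGF1 and 5.37 CPM at day 26, and rose by 1.59 (SE 0.18). Junb rose by 1.61 (SE 0.29). Of 5 endothelin genes tested, Ece2 rose by 0.40 (SE 0.13) and Ece1, an endothelin-converting enzyme gene, fell by 1.08 (SE 0.10). Of 10 NF-κB genes, Nfkbiz, Rel and Tnfaip3 rose, by 1.03, 0.75 and 0.53, and none fell.

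Of 9 genes linked to glial reactivity of every kind, 6 rose and none fell. Among them Cp, the ceruloplasmin gene, had a median of 266 CPM at day 32 with FGF1 and 93.0 CPM at day 26, and rose by 1.50 (SE 0.15). S1pr3 rose by 0.99 (SE 0.09), Cd44 by 1.14 (SE 0.14) and Lcn2 by 3.28 (SE 0.47). Genes linked to inflammatory reactivity were mixed, with 4 of 10 rising and 2 falling. Psmb8 and Gbp2 rose by 3.11 and 3.64, H2-D1 by 0.71, and the complement inhibitor gene Serping1 fell by 2.04. Those linked to ischemic reactivity were mixed as well, with 4 of 10 rising and 2 falling. Cd109 and Sphk1 rose by 2.27 and 1.08, while Clcf1 and B3gnt5 each fell by 0.79. Of 15 cell stress genes 8 rose and none fell, among them Atf3 by 1.68, Gadd45a by 1.12, Fos by 3.98 and Jun by 0.64. All of these calls used the same edgeR quasi-likelihood test with Benjamini-Hochberg adjustment over 20111 genes, of which 14.6% rose and 14.1% fell.

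The genes with the profile most like a member's over the 12 deeper libraries were found by the root mean square difference of centred log2 CPM among 13101 genes. For Fgf2 these were Slc24a1 (0.23), the gene of the rod sodium, calcium and potassium exchanger, Gabrr1 (0.57) and Edn2 (0.63). Edn2 had Slc24a1 (0.63), Fgf2 (0.63) and Gabrr1 (0.72). Slc24a1 itself had 77.0 to 223 CPM at day 32 with FGF1 and 1.29 to 2.64 CPM at day 26. The genes nearest to Bcl3 included Lad1 (0.60) and Osmr (0.63). These genes shared the large step between days that chose the members.

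No member passed an adjusted p under 0.05 between fatty acids in either set, 0 of 10 in each pair of media. In the deeper set DHA against LA called 0.00497% of 20111 genes, DHA against BSA 0% and LA against BSA 0.00497%. The 1 gene called, named after its values were seen, was Rfx4, lower with DHA than with LA by 2.51 and higher with LA than with BSA by 3.25 (log2). In the shallower set 0% of 19484 genes were called in each of the 3 pairs of media. At an unadjusted p under 0.05 the deeper set gave 935 genes for DHA against LA (37 called by DESeq2), 311 in the pair of DHA and BSA (0 by DESeq2) and 673 in the pair of LA and BSA (29 by DESeq2). The shallower set gave 419 genes (21 by DESeq2), 387 (17) and 337 (13) for these pairs. With no differences at all, a share of 0.05 of the genes tested would be expected under that unadjusted p. Each of these unadjusted counts is below that share. In simulated data the DHA against LA test recovered 97% of 4-fold changes and 61% of 2-fold changes in the deeper set, but 65% and 10% in the shallower set. The changed genes averaged above 10 counts, with no other group differences simulated, so these rates are not rates for the members. In the deeper set the standard error of DHA minus LA was 1.12 for Edn2, 0.61 for Serpina3n and 0.56 for Gfap, against 0.23 for Stat3.

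Gfap, Serpina3n and Ednrb were the members with the widest gap between DHA and LA in the deeper set. Gfap with DHA minus LA was -1.46 in the deeper set (95% interval -2.70 to -0.23, edgeR quasi-likelihood test with Benjamini-Hochberg adjustment, adjusted p = 0.991) and -1.34 in the shallower set (-2.49 to -0.20, adjusted p = 1). Without the second LA library with FGF1 the deeper value was -0.42, and those of Serpina3n and Ednrb were -0.74 and -0.49. In the shallower set Gfap had 13.6, 10.2 and 27.0 CPM with DHA and no FGF1, 37.3, 63.0 and 18.2 CPM with LA and no FGF1, and 41.6, 20.9 and 20.3 CPM with BSA and no FGF1, so the media overlapped. Serpina3n with DHA minus LA was -1.26 in the deeper set (-2.60 to 0.07) and -1.79 in the shallower set (-3.27 to -0.31). It had 1.52, 1.28 and 1.04 CPM with DHA and no FGF1, 6.49, 6.75 and 1.31 CPM with LA and no FGF1, and 14.4, 1.48 and 2.34 CPM with BSA and no FGF1. Ednrb with DHA minus LA was -0.96 in the deeper set (-1.62 to -0.30, edgeR quasi-likelihood test with Benjamini-Hochberg adjustment, adjusted p = 0.816) and -0.53 in the shallower set (-1.20 to 0.15).

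These calls turned on the filter on low counts. With no filter, Gfap, Serpina3n and Ednrb passed edgeR's quasi-likelihood test with Benjamini-Hochberg adjustment for DHA against LA in the deeper set, at adjusted p = 8.0e-19, 0.0037 and 1.4e-05. Their differences were then -1.46, -1.26 and -0.95, and 359 genes were called in place of 1. The same 3 genes then passed for LA against BSA, Gfap and Serpina3n for the difference of steps between days, and Gfap for DHA against LA in the shallower set. Under the 19 other settings tried, DESeq2 among them, none of them passed, with adjusted p ranging between 0.368 and 1 for Gfap, 0.777 and 1 for Serpina3n, and 0.194 and 1 for Ednrb. The cause of the lower p without a filter was not tested.

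Fgf2 and Stat3 were closer between the fatty acids, and the intervals were wide for genes of low count. Fgf2 with DHA minus LA was 0.10 in the deeper set (-0.83 to 1.03) and -0.01 in the shallower set (-0.50 to 0.48). Stat3 was 0.04 (-0.46 to 0.54) in the deeper and 0.28 (-0.34 to 0.90) in the shallower set. Edn2 was -0.40 (-2.85 to 2.05) in the deeper and 1.18 (-0.60 to 2.95) in the shallower set, which leaves differences of several fold within reach in either direction. Osmr was -0.33 (-1.49 to 0.82) in the deeper and -1.07 (-2.14 to 0.01) in the shallower set.

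Against BSA, Gfap was higher with LA by 1.62 (0.37 to 2.86), Serpina3n by 1.59 (0.19 to 2.99) and Ednrb by 1.00 (0.34 to 1.66) in the deeper set, none of them past the adjusted threshold. Without the second LA library with FGF1 these values were 0.58, 1.07 and 0.53. The Serpina3n value was 4.58 without the first BSA library of day 26, which left only a BSA library with 0 Serpina3n counts at that day, and 1.08 without the second. In the shallower set the same 3 values with LA minus BSA were 0.84, 0.02 and 0.28. DHA minus BSA in the deeper set was 0.15 (95% interval -1.08 to 1.39) for Gfap, 0.32 (-1.09 to 1.73) for Serpina3n and 0.04 (-0.63 to 0.70) for Ednrb. Without the first BSA library of day 26 the Serpina3n value was 3.32, and without the second it was -0.18. In the shallower set Serpina3n with DHA minus BSA was -1.77 (-3.31 to -0.23). The step from day 26 to day 32 with FGF1 in DHA minus the same step in LA was -2.0 (-4.45 to 0.45) for Gfap and -2.48 (-5.15 to 0.20) for Serpina3n. No gene of 20111 (0%) was called for this difference of steps, with 67 called by DESeq2. At an unadjusted p under 0.05 there were 1272, above the share of 0.05 expected with no differences. Without the second LA library with FGF1, the Gfap value was 0.083.

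**Figure D3:**
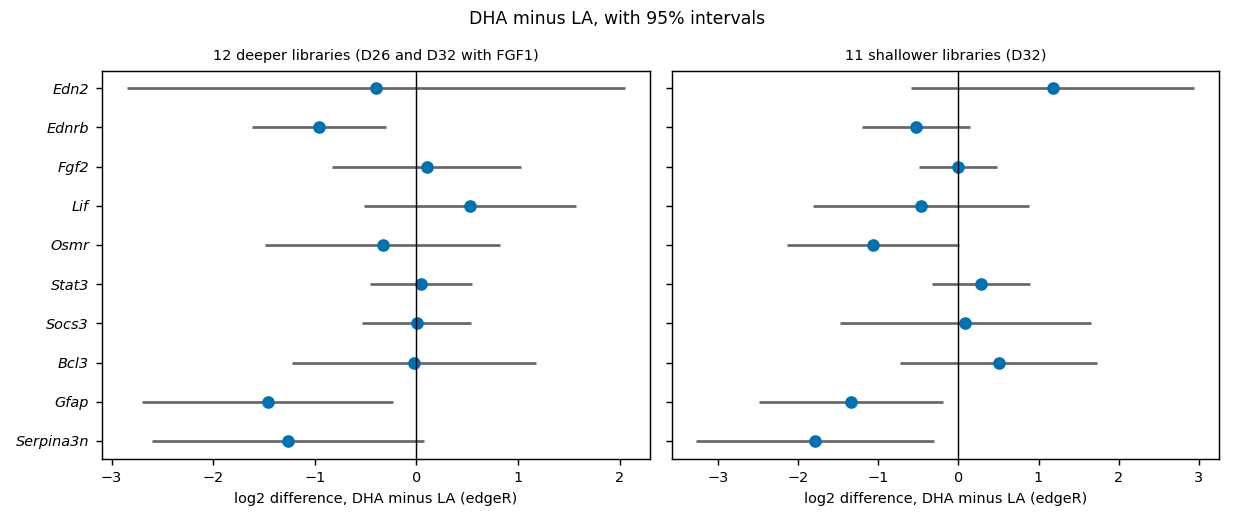
DHA minus LA on the log2 scale with 95% intervals for the 10 genes, in the 12 deeper libraries (left) and the 11 shallower libraries (right). Gfap, Serpina3n and Ednrb lie below 0 in both panels, and Fgf2 lies at 0.10 and -0.01.

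FGF1 could be compared at a single day only in the shallower set, with 2 libraries against 9. No gene of 19484 (0%) was called, with 11 called by DESeq2. At an unadjusted p under 0.05 there were 372, below the share of 0.05 expected with no differences. Both libraries with FGF1 are among those left out by the authors, and the fit holds a term for that. Of the libraries without FGF1, only the first of each medium was left out. The fitted differences therefore set FGF1 mainly against those first libraries, and not evenly against all 9. For Fgf2 they are the first value listed for each medium below. Fgf2 had 160 CPM in the LA library with FGF1 and 136 CPM in the BSA library with FGF1, against 132, 298 and 440 CPM with DHA, 205, 267 and 348 CPM with LA, and 126, 281 and 290 CPM with BSA in libraries without FGF1. Its fitted difference, FGF1 minus no FGF1, was -0.03 (-0.61 to 0.54). Bcl3 had 0.880 and 0.904 CPM in the libraries with FGF1, below all 9 without it, which had 1.21 to 6.76 CPM. Its fitted difference was -1.43 (-3.01 to 0.15, edgeR quasi-likelihood test with Benjamini-Hochberg adjustment, adjusted p = 1). Osmr had 21.1 and 14.9 CPM with FGF1 and 2.65 to 19.2 CPM without it, a difference of 0.90 (-0.36 to 2.16). Edn2 had 1.21 and 1.31 CPM with FGF1 and 0.329 to 9.75 CPM without it, a difference of -0.36 (-2.52 to 1.80). In simulated data this comparison recovered 51% of 4-fold changes and 5% of 2-fold changes.

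Fgf2 and Edn2 also had more CPM in the shallower day 32 libraries without FGF1 than in the deeper libraries of day 26. Fgf2 had 126 to 440 CPM in those 9 libraries, against 0.965 to 2.36 CPM in the 6 of day 26. Edn2 had 0.329 to 9.75 CPM in the 9, against 0 to 0.108 CPM at day 26. Bcl3 had 1.21 to 6.76 CPM in the 9, against 0.0501 to 0.648 CPM at day 26. Socs3 lay the other way, with 1.31 to 7.36 CPM in the 9 and 6.47 to 12.1 CPM at day 26. These libraries belong to different sets, so no test was made across them, and day and set cannot be told apart here.

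How far a member differed between the sets is seen where both hold the same group, day 32 with FGF1 in LA or BSA. The 2 shallower libraries there, both left out by the authors, also had lower sums of rod and cone and of Müller glia markers. Rod and cone sums were 2874 and 2951 TPM, against 6134 to 9642 TPM in the 4 deeper ones. Müller glia sums were 1064 and 1116 TPM, against 1999 to 3147 TPM. Not every marker sum was lower. Mesenchyme and fibroblast sums were 140 TPM with LA and 128 TPM with BSA, against 17.6 to 253 TPM in the 4 deeper ones. Endothelium sums were 88.9 TPM with LA and 114 TPM with BSA, against 77.2 to 98.6 TPM. Set, cell makeup and the grounds for leaving libraries out cannot be told apart in these ratios. Bcl3 averaged 0.892 CPM in the 2 shallower libraries and 7.93 CPM in the 4 deeper ones, a log2 ratio of -3.15. Edn2 had 1.21 and 1.31 CPM in the shallower and 3.51 to 18.0 CPM in the deeper libraries (-3.05). Socs3 averaged 1.91 CPM in the shallower and 14.1 CPM in the deeper libraries (-2.88). Lif (-1.94) and Stat3 (-1.14) were lower in the shallower libraries too, Osmr (1.2) was higher there, and Fgf2 (0.25) was close. For the 3 other members the second LA library with FGF1 decided the ratio. Gfap gave -2.02 with that library and -0.41 without it, and Ednrb gave 0.89 with it and 1.66 without it. Serpina3n gave -0.11 with it and 0.90 without it, having 11.9 CPM in the shallower BSA library against 2.88 and 5.02 CPM in the deeper ones, and 9.24 CPM in the shallower LA library against 9.09 and 28.9 CPM in the deeper ones. GC content was 60.5% for Bcl3, 58.8% for Socs3 and 57.0% for Edn2, and 45.8% for Osmr, 43.7% for Ednrb and 42.3% for Fgf2, with a median of 49.3% over expressed genes. The part of GC content in these ratios was not tested. With offsets for GC content, added after the data were seen, the day difference within the deeper set was 7.58 for Edn2, 6.20 for Fgf2 and 5.16 for Bcl3.

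Among the 11 shallower libraries, all at day 32, Edn2 varied with Bcl3 and Socs3 but not detectably with Fgf2. The permutation tests shuffled all 11 libraries freely, whatever their medium, FGF1 or number. LA and DHA libraries of the same number deviated together in this set, which the p-values leave out of account. The second DHA library without FGF1 was highest for Edn2 (9.75 CPM), Bcl3 (6.76 CPM), Socs3 (7.36 CPM) and Stat3 (122 CPM). Over 14 relations with log2 Edn2, Bcl3 gave Pearson's r = 0.857 (permutation test, p = 0.00074, adjusted p = 0.00259) and Spearman's rho = 0.945 (permutation test, p = 5.0e-05, adjusted p = 0.00035). Without the 2 libraries farthest from the median of Edn2, r was 0.856, and in the 6 libraries kept by the authors it was 0.994. Socs3 gave r = 0.770 (permutation test, p = 0.00334, adjusted p = 0.00668) and rho = 0.845 (permutation test, p = 0.00191, adjusted p = 0.00599), and r = 0.684 without the same pair. Stat3 gave r = 0.831 (permutation test, p = 0.00167, adjusted p = 0.0039) and rho = 0.618 (permutation test, p = 0.0474, adjusted p = 0.0948). Without the pair r was 0.506, so that this relation rests on those libraries. Fgf2 gave r = 0.018 and rho = -0.009 (permutation tests, p = 0.961 and p = 0.99), and Gfap r = -0.197 and rho = -0.082 (permutation tests, p = 0.57 and p = 0.819).

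The mitochondrial share, the slope on GC content and the rod and cone markers also varied with Edn2. The mitochondrial share gave r = -0.852 (permutation test, p = 0.00049, adjusted p = 0.00259) and rho = -0.818 (permutation test, p = 0.0037, adjusted p = 0.00863), and r = -0.930 without the same pair. The slope on GC content gave r = 0.800 (permutation test, p = 0.00104, adjusted p = 0.00291) and rho = 0.836 (permutation test, p = 0.00214, adjusted p = 0.00599), and r = 0.699 without the pair. The rod and cone marker sum gave r = 0.859 (permutation test, p = 0.00066, adjusted p = 0.00259) and rho = 0.873 (permutation test, p = 0.00096, adjusted p = 0.00448), and r = 0.936 without the pair. The Müller glia marker sum gave r = 0.723 (permutation test, p = 0.0136, adjusted p = 0.0237) and rho = 0.527 (permutation test, p = 0.1, adjusted p = 0.157). Without the pair its r was 0.264, so that this relation rests on those libraries. The second DHA library had the lowest mitochondrial share of the 11, at 5.55%, and the highest GC slope, at -0.118. Its rod and cone marker sum was also the highest, at 7598 TPM. The part of these measures in the relation of Edn2 to Bcl3 was not tested.

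**Figure D4:**
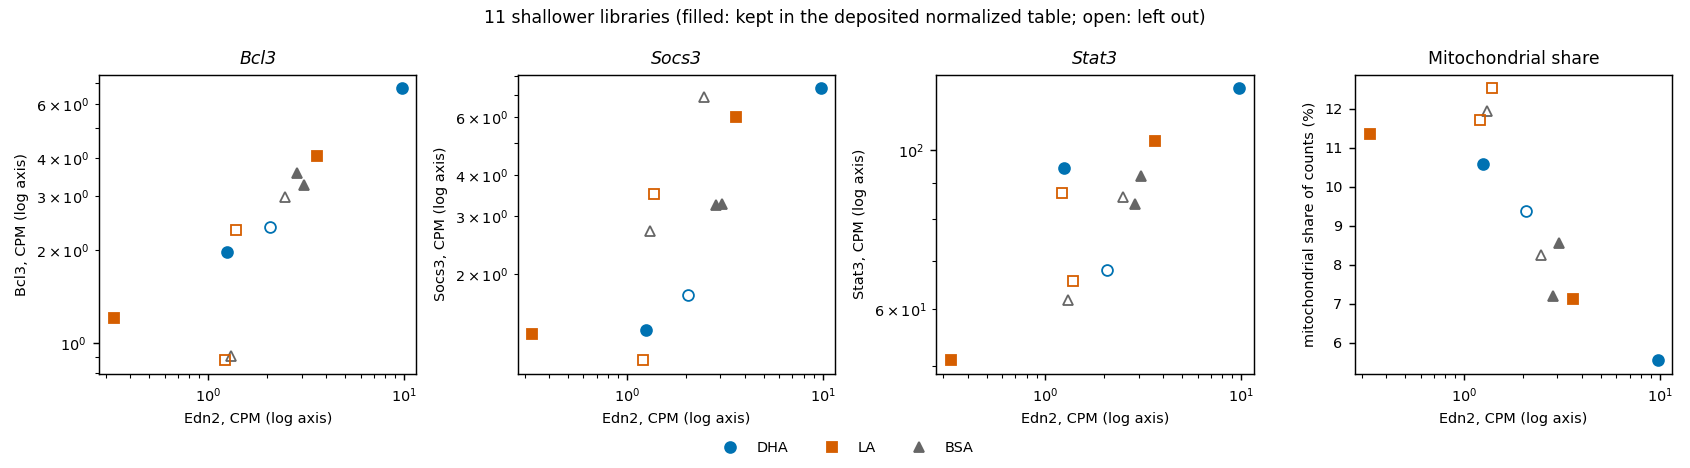
Edn2 (CPM, log axis) against Bcl3, Socs3 and Stat3 (CPM, log axes) and against the mitochondrial share of counts (%), 1 point per shallower library, filled where the authors kept the library. Bcl3 climbs with Edn2 while the mitochondrial share declines, with r = 0.857 and r = -0.852.

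For Ednrb and Bcl3, the transcripts behind the gene counts differed between the sets more than between the days. For Ednrb, transcript Ednrb-201 took 39.5% of the pooled transcript counts at day 32 with FGF1 and 42.7% at day 26 in deeper libraries. In the shallower libraries it took 0% with FGF1 and 6.60% without FGF1, where Ednrb-202 took 98.0% with FGF1 and 91.6% without FGF1. The 3 Ednrb transcripts have the same coding length of 1326 bases. For Bcl3, Bcl3-201 took 68.5% at day 32 with FGF1 and 46.5% at day 26 in deeper libraries, but 14.0% with FGF1 and 7.09% without FGF1 in shallower ones. These Bcl3 shares rest on few counts except the first, namely 1193 at day 32 with FGF1 and 31 at day 26 in deeper libraries, and 11 with FGF1 and 159 without FGF1 in shallower ones. Stat3-203, which has a coding length of 2310 bases, led in every group with 82.0% to 92.8%. Osmr differed between the days and not between the sets, since Osmr-201 took 86.2% at day 32 with FGF1 and 54.4% at day 26 in deeper libraries, and 86.7% with FGF1 and 88.4% without FGF1 in the shallower libraries of day 32. Its day 26 share rests on 26.3 counts of that transcript. Lif-201 took 81.9% at day 32 with FGF1 and 100% at day 26 in deeper libraries, and 100% with FGF1 and 91.1% without FGF1 in shallower ones.

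**Figure D5:**
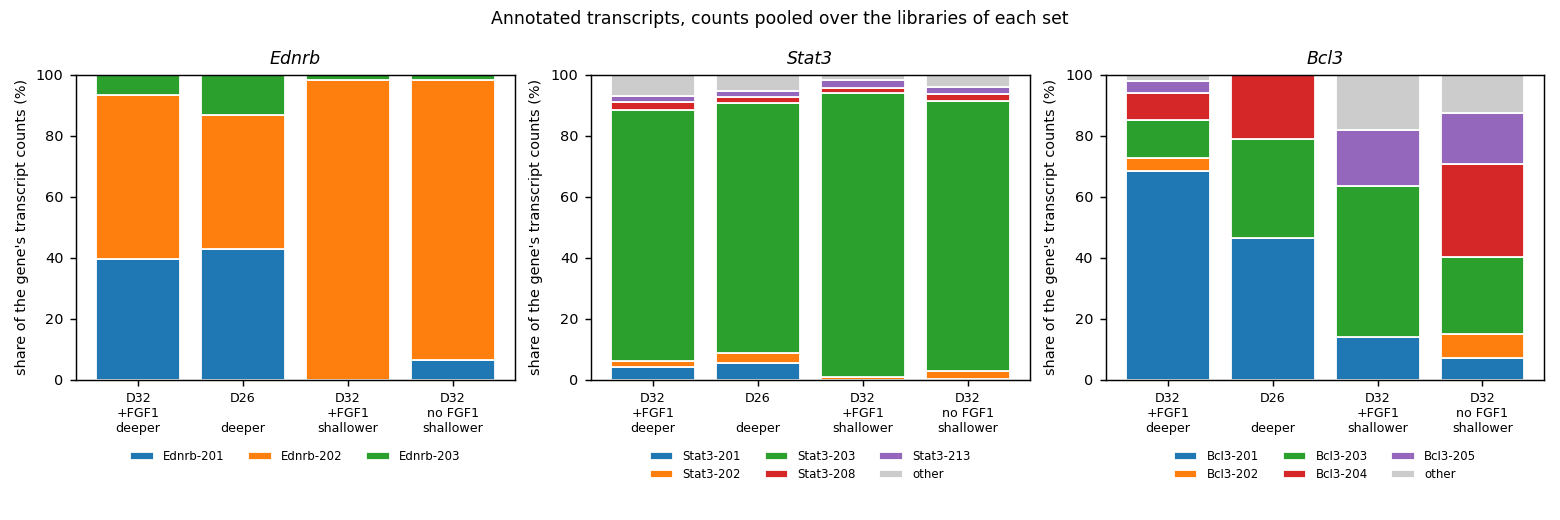
Share of each gene's transcript counts (%) taken by its annotated transcripts, pooled over the libraries of each set. Ednrb-201 takes 39.5% and 42.7% in the deeper bars and at most 6.60% in the shallower ones, and Bcl3-201 takes 68.5% and 46.5% in the deeper bars and at most 14.0% in the shallower ones.

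The deposited gene counts were not plain sums of the deposited transcript counts. For Bcl3 the gene table held 301 counts in the 9 libraries without FGF1, where its transcripts summed to 159, a ratio of 1.89, and 947 against 1193 in the deeper day 32 libraries, a ratio of 0.794. For Lif the ratio was 1.21 at day 32 with FGF1 and 0.929 at day 26 in deeper libraries, and for Osmr it was 1.01 at day 32 with FGF1 and 1.33 at day 26. Edn2, Gfap and Serpina3n stayed between 0.952 and 1.02 in all groups. With transcript sums in place of gene counts, chosen after the data were seen, the day differences were 7.54 for Edn2, 5.83 for Fgf2, 5.25 for Bcl3 and 4.15 for Osmr. The relation of Edn2 to Bcl3 in the shallower libraries gave r = 0.907 (permutation test, p = 0.00011) and rho = 0.955 (permutation test, p = 3.0e-05) with Bcl3 from transcript counts.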

How the data were processed

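RNA was sequenced from 23 samples of retinal organoids. The submitters' processing notes name kallisto 0.45.0, Trimmomatic 0.36 and edgeR with the build GRCm38.p6, and give neither order nor settings. The authors deposited expected counts (estimated counts that need not be whole) per gene and per transcript for all 23 libraries. They also deposited a normalized CPM signal for 18 libraries, which was used only as a check: 151 member values above 1 CPM had a median ratio of 0.957 to it. No row lacked a gene. The labels call the samples biological replicates but name no separate cultures, so p-values measure the spread between these samples.

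Gene counts were rounded, filtered with filterByExpr, scaled by TMM and fitted with the quasi-likelihood test of edgeR 4.0.16 in R 4.3.3, with Benjamini-Hochberg adjustment over all genes tested and a threshold of 0.05. The deeper set (12 libraries, 6 groups, 20111 genes) and the shallower set (11 libraries, terms for medium, FGF1 and libraries left out by the authors, 19484 genes) were fitted apart, each with 6 residual degrees of freedom. All 10 members passed both filters. TPM used transcript counts and GENCODE M21 lengths. Relations used 100000 resamples, two-sided, on log2 CPM with a prior count of 2. The fits were tested on simulated data with 200 changed genes, picked among those averaging above 10 counts. Counts were drawn with the fitted dispersions and without other differences between groups. Total counts of 10405663 to 20510550 per library set the precision.

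The members, the 7 pathway lists, the 11 marker lists and the tests were chosen with earlier results of these data known. All members are named. Of each pathway list, up to 4 called genes with the smallest p are named, and for Edn2, Fgf2 and Bcl3 the 3 genes with the most similar profile. Some genes these rules chose are not reported here. Alternatives were RLE factors, no filter, DESeq2 1.42.0, a replicate block, 1 fit of all libraries, no term for libraries left out, the 6 shallower libraries kept, and leaving out each library, with GC offsets, transcript sums and a replicate block at day 32 only added later.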

Additional observations from a re-analysis of the deposited data

How the results depend on the processing

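Every member kept a higher level at day 32 with FGF1 than at day 26 under each alternative run. The members were chosen from this contrast and the choice was not repeated, so this describes the processing and is no support for the rise. Leaving out 1 library at a time moved the log2 difference of Edn2 between 7.06 and 8.60 and that of Serpina3n between 3.02 and 5.37. Over all genes, 5773 were called between days, 4326 to 5899 without 1 library, and 2001 in the fit of all 23 libraries (1265 higher, 736 lower). That single fit called 0 genes for DHA against LA and 0 for LA against BSA in the deeper set, as did transcript sums (0 and 0), in place of 1 each. Without a filter on low counts the deeper set gave 359 genes for DHA against LA, 72 with DHA against BSA, 334 for LA against BSA, and 332 for the difference of steps. The shallower set then gave 32 for FGF1, 60, 66 and 45 for DHA against LA, DHA against BSA and LA against BSA. DESeq2 gave 37 for DHA against LA, 29 for LA against BSA and 67 for the difference of steps in the deeper set, and 11, 21, 17 and 13 for FGF1 and the 3 pairs of media in the shallower set. The cause was not tested. Without 1 library the deeper counts ran between 0 and 1 for DHA against LA, 0 and 3 for LA against BSA, and 0 and 1 for the difference of steps.

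Libraries of the same number deviated together among the deeper day 32 libraries, with correlations of 0.157 to 0.351 between media. They did not at day 26 (-0.123 to 0.221) or between the days (-0.096 to 0.116). In the shallower set (-0.337 to 0.593) they did so between LA and DHA, with correlations of 0.262, 0.593 and 0.397. Pairs with BSA there had both signs, -0.337 to 0.225. The deeper comparisons span both days, and neither main fit holds a replicate block, so the pairing of LA and DHA in the shallower set is ignored there. A replicate block at day 32 only, added after this was seen, called 6459 genes between days, 0 for DHA against LA and 1 for LA against BSA, and no member between fatty acids. With the number as a replicate block, 2 genes were called for DHA against LA in the deeper set, and 1 each for DHA against BSA and LA against BSA in the shallower set. The block turned Serpina3n with LA minus BSA in the shallower set to -0.14.

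No member that changed sign was called. In the shallower set FGF1 minus no FGF1 was 0.023 for Fgf2 with transcript sums, -0.11 for Stat3 with no term for libraries left out and 0.17 for Gfap with GC offsets. Serpina3n with LA minus BSA was -0.34 with no such term, and Ednrb with DHA minus BSA 0.072 in the 6 libraries kept. In the fit of all 23, DHA minus BSA was -0.035 for Serpina3n and -0.39 for Ednrb in the deeper set. Leaving out 1 library, FGF1 minus no FGF1 ranged between -0.00090 and 0.48 for Ednrb, -0.15 and 0.24 for Fgf2, -0.10 and 1.33 for Lif, -0.34 and 0.46 for Stat3, -0.79 and 0.45 for Gfap, and -0.057 and 1.21 for Serpina3n. DHA minus BSA in the deeper set ranged between -0.13 and 0.61 for Gfap, -0.18 and 3.32 for Serpina3n and -0.13 and 0.19 for Ednrb. In the shallower set Ednrb with DHA minus BSA ranged between -0.70 and 0.10 and Serpina3n with LA minus BSA between -0.64 and 0.60. The difference of steps for Gfap ranged between -3.27 and 0.083.

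Depth limits Edn2, Lif and Bcl3 most, which held 6, 39 and 30 counts in the 6 day 26 libraries.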
